A study of Mus musculus with 20 samples.

Results

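The miR-15, miR-16, miR-195 and miR-497 family was followed in the serum of normal and Ames dwarf mice. Its 6 members were taken by name, of 1915 mature miRNA names in the count table: mmu-miR-16-5p, mmu-miR-15a-5p, mmu-miR-15b-5p, mmu-miR-195a-5p, mmu-miR-497a-5p and mmu-miR-322-5p (the species prefix is left out from here on). Where a name had several rows, the row with the highest total was used. All mice were female and carried the same strain label, Ames dwarf on a heterogeneous genetic background. The 4 groups of 5 libraries each were young normal and young dwarf mice (5 to 6 months) and old normal and old dwarf mice (21 to 22 months). Ames dwarf mice lack several pituitary hormones, growth hormone among them, and live long, while the alleles of the normal mice are not given in the labels. The study asks whether miRNAs in the circulation age differently in the 2 genotypes. The labels do not say that the libraries of a group come from separate mice, so p-values measure the spread between these libraries.

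A miRNA binds messages mainly through its seed, bases 2 to 8, so miRNAs of one seed share many targets. The family holds back the cell cycle and lowers the cell death inhibitor Bcl2, and loss of miR-15a and miR-16 is well known from chronic lymphocytic leukaemia. miR-16-5p is abundant in blood cells and in serum, where it often serves as a reference. miR-195 and miR-497 restrain dividing muscle and heart cells, and miR-322, the mouse counterpart of human miR-424, acts in muscle differentiation.

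The mature sequences (RefSeq, GRCm38.p6) are shown because the seed defines the family and the rest of each molecule tells its members apart. They are written 5′ to 3′ with the seed in capitals.
miR-16-5p: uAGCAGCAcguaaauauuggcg
miR-195a-5p: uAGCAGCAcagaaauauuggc
miR-15a-5p: uAGCAGCAcauaaugguuugug
miR-15b-5p: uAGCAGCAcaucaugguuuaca
miR-497a-5p: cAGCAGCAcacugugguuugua
miR-322-5p: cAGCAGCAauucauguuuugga

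All 6 members carried the seed AGCAGCA, which 10 mature names of the sequence table share. The 4 names outside the family (miR-195b, miR-6342, miR-6353 and miR-6419) had 0 reads in all 20 libraries, so the family members held every read counted for this seed. Aligned from the 5′ end, miR-16-5p and miR-195a-5p were the closest pair, with 2 different bases over 21, G10A and U11G (the base of miR-16-5p, its position from the 5′ end, then the base of miR-195a-5p). The other pairs differed at 4 to 11 bases. The mismatch setting of the authors' mapping is not given in the sources used here. miR-16-5p was far the more abundant of the close pair, and the log2 ratio of miR-195a-5p to miR-16-5p counts ran from -11.68 to -8.73 over the libraries. Whether reads of miR-16-5p were counted under miR-195a-5p could not be checked from the counts, and such reads would change the values of miR-195a-5p given below.

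The genes lie in 4 clusters (GENCODE M21 on GRCm38). Mir15a (chromosome 14, 61632027 to 61632110) lies in an intron of the noncoding gene Dleu2, and Mir16-1 (61631880 to 61631972) lies beside it in an exon of Dleu2. Mir15b (chromosome 3, 69009772 to 69009835) and Mir16-2 (69009902 to 69009996) lie in introns of Smc4, which encodes a condensin subunit. Mir497 (chromosome 11, 70234717 to 70234800) and Mir195a (70235042 to 70235135) lie close together between genes. Mir322 (chromosome X, 53054255 to 53054349) lies between genes, near Mir503, Mir351, Mir542 and Mir450b. The mature miR-16-5p of both loci is the same molecule, and its counts in the 2 precursor rows differed by 0.0214% to 0.2505% per library, so the loci cannot be told apart from it.

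Libraries held 1343137 to 4710263 miRNA counts, and 360 miRNAs were abundant enough to be tested, all 6 members among them. The share of all counts held by the family was 4.05 ± 0.848% in old normal mice, against 6.92 ± 1.18% in young normal mice, 6.88 ± 1.32% in old dwarf mice and 7.995 ± 1.04% in young dwarf mice (mean ± SD, n = 5). Every old normal library (2.57% to 4.65%) lay below every other library (5.17% to 9.11%). Shares of the total fall when other abundant miRNAs rise, and members are therefore given in CPM, counts relative to a library size that was scaled with TMM factors (0.674 to 1.51). miR-16-5p made up 94.9% to 96.3% of the family counts in each library and ranked 4th of the 360 by mean CPM. miR-15a-5p ranked 32nd, miR-15b-5p 88th, miR-497a-5p 134th, miR-195a-5p 155th and miR-322-5p 177th.

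In CPM, a relative level, old normal serum held less miR-195a-5p and miR-497a-5p than young normal serum, and old dwarf serum held more miR-195a-5p than old normal serum. Below, normal ageing stands for old over young normal mice, dwarf ageing for old over young dwarf mice, and the old or young genotype contrast for dwarf over normal mice of that age. The main fit took all 20 libraries, all names with 1 row each, TMM factors and no covariate. In it miR-16-5p, miR-15a-5p, miR-15b-5p and miR-322-5p passed the threshold in none of the comparisons. Other settings called the first 3 of these in some comparisons. The miR-497a-5p call was lost in several settings, and all member calls were lost with a haemolysis index in the model, as given below. No member passed the threshold in the young genotype contrast or in dwarf ageing. The threshold was an adjusted p under 0.05 (edgeR quasi-likelihood test, Benjamini-Hochberg adjustment over the 360 miRNAs).

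**Figure D1:**
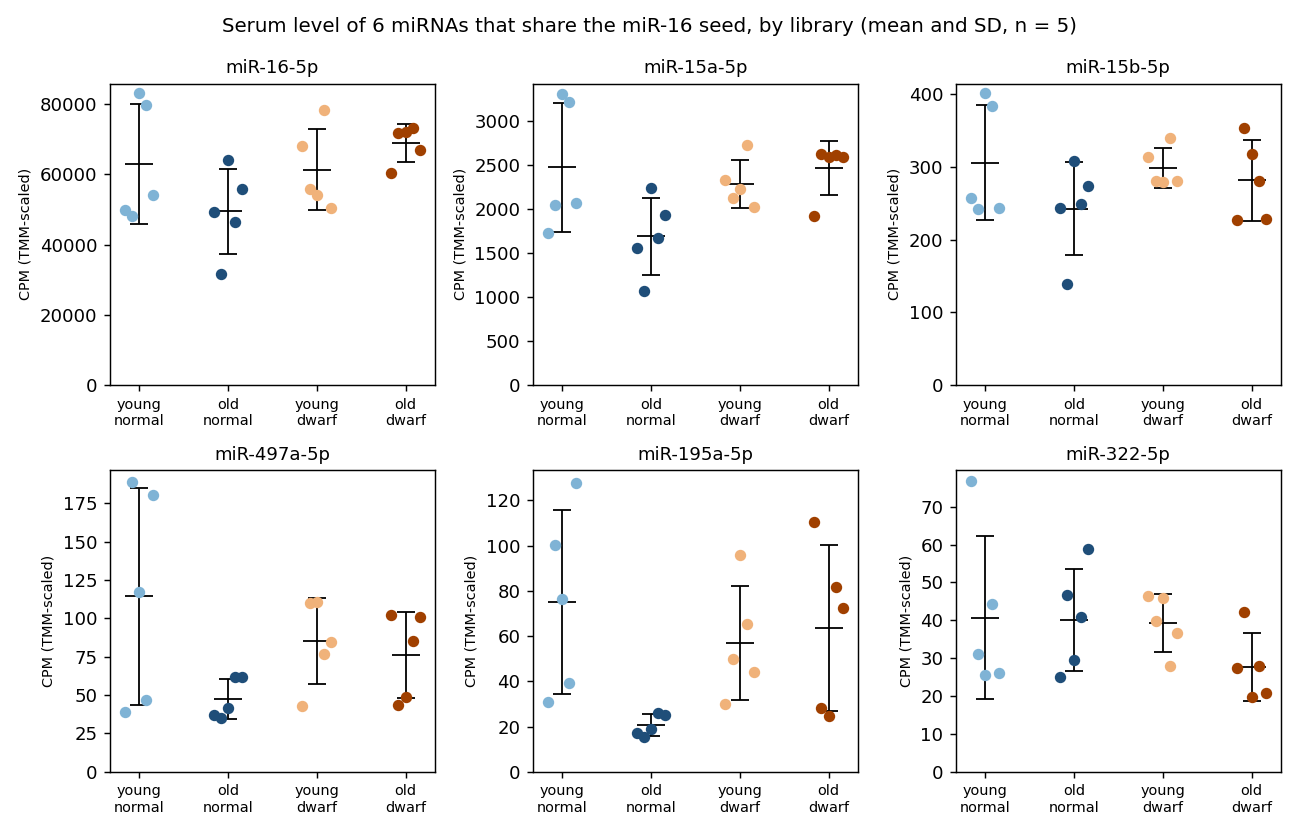
Serum levels of the 6 members in CPM (linear axes from 0) in each library of the 4 groups. Each point is a library and the bars show mean and SD (n = 5). The 5 old normal libraries held 15.2 to 26.2 CPM of miR-195a-5p, below all 5 young normal libraries.

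miR-195a-5p stood in young normal replicates 1 to 5 at 31.1, 100.5, 76.4, 39.1 and 128 CPM. In old normal replicates 1 to 5 it stood at 17.1, 15.2, 19.1, 26.2 and 25.1 CPM. The old normal values rested on 34, 17, 48, 48 and 73 reads. The young and old normal groups did not overlap, and the old normal libraries were both the lowest and the most alike. In young dwarf replicates 1 to 5 miR-195a-5p stood at 29.9, 49.7, 95.7, 65.5 and 44.0 CPM. In old dwarf replicates 1 to 5 it stood at 110.4, 28.3, 24.8, 81.9 and 72.5 CPM. The old dwarf libraries were split, with replicates 2 and 3 near the old normal range and replicate 3 inside it. Group means were 74.9 ± 40.7 CPM in young normal, 63.6 ± 36.6 in old dwarf, 57.0 ± 25.1 in young dwarf and 20.5 ± 4.85 in old normal mice (SD, n = 5). The first 3 of these overlapped widely.

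In normal ageing miR-195a-5p fell by 1.86 ± 0.45 on the log2 scale (SE, edgeR adjusted p 0.0115). It was higher in the old genotype contrast by log2 1.62 ± 0.45 (adjusted p 0.0133). These comparisons share the 5 old normal libraries and are not independent. The age difference passed in each of 20 fits with 1 library left out (log2 -2.05 to -1.59, highest adjusted p 0.0416). The genotype difference passed in 19 of 20, and without old dwarf replicate 1 it was log2 1.33 (adjusted p 0.0525).

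miR-497a-5p, encoded beside miR-195a-5p, stood in young normal replicates 1 to 5 at 38.8, 189, 117, 46.7 and 180.2 CPM. In old normal replicates 1 to 5 it stood at 37.2, 34.9, 41.7, 61.6 and 61.8 CPM. Young normal replicates 1 and 4 lay within the old normal range, and the other 3 lay well above it. In young dwarf replicates 1 to 5 it stood at 42.7, 109.7, 111, 76.6 and 84.9 CPM. In old dwarf replicates 1 to 5 it stood at 102, 43.7, 48.5, 85.3 and 101 CPM. The low libraries of the young and dwarf groups were those that were also low in miR-195a-5p: young normal replicates 1 and 4, young dwarf replicate 1 and old dwarf replicates 2 and 3.

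miR-497a-5p fell by 1.27 ± 0.41 on the log2 scale in normal ageing (SE, edgeR adjusted p 0.0428). This call was close to the threshold and was kept in 12 of 20 fits with 1 library left out, with log2 values of -1.48 to -1.01. It was lost without young normal replicates 2 (adjusted p 0.109), 3 (0.0753) or 5 (0.126), without old normal replicates 1 (0.0972), 2 (0.103) or 3 (0.0769), and without young dwarf replicates 4 (0.0514) or 5 (0.0541). In the old genotype contrast its value was log2 0.68 ± 0.41 (adjusted p 0.206), not past the threshold.

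miR-16-5p stood in young normal replicates 1 to 5 at 49792, 48142, 83226, 79755 and 54194 CPM. In old normal replicates 1 to 5 it stood at 49274, 31572, 64081, 46395 and 55867 CPM. Young normal replicates 3 and 4 stood apart as high and old normal replicate 2 as low, and the groups overlapped. In young dwarf replicates 1 to 5 it stood at 68094, 55889, 54161, 78259 and 50271 CPM. In old dwarf replicates 1 to 5 it stood at 60359, 71757, 72119, 73221 and 66904 CPM. The old dwarf libraries were the most alike, with a coefficient of variation of 7.76% against 27.1% in young normal, 24.4% in old normal and 18.9% in young dwarf mice. Group means were 68872 ± 5342 CPM in old dwarf, 63022 ± 17048 in young normal, 61335 ± 11572 in young dwarf and 49438 ± 12086 in old normal mice (SD, n = 5). The age difference in normal mice was log2 -0.35 ± 0.21 (edgeR adjusted p 0.205) and the genotype difference in old mice log2 0.48 ± 0.21 (adjusted p 0.0818).

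miR-15a-5p, encoded beside Mir16-1, stood in young normal replicates 1 to 5 at 1728, 2042, 3316, 3219 and 2072 CPM. In old normal replicates 1 to 5 it stood at 1554, 1065, 2239, 1675 and 1933 CPM. The same libraries as for miR-16-5p were high (young normal replicates 3 and 4) or low (old normal replicate 2). In young dwarf replicates 1 to 5 it stood at 2330.5, 2129, 2229.6, 2736 and 2029.6 CPM. In old dwarf replicates 1 to 5 it stood at 1923, 2623, 2589, 2619 and 2596 CPM. Old dwarf replicate 1 alone lay inside the old normal range. The values were log2 -0.55 ± 0.21 in normal ageing (edgeR adjusted p 0.0726) and log2 0.54 ± 0.21 in the old genotype contrast (adjusted p 0.0607).

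miR-15b-5p, encoded beside Mir16-2, ranged from 243 to 401 CPM in young normal, 139 to 309 in old normal, 279 to 339.7 in young dwarf and 227 to 354 in old dwarf mice. All 4 groups overlapped. Its values were log2 -0.33 ± 0.22 in normal ageing (edgeR adjusted p 0.252) and log2 0.21 ± 0.22 in the old genotype contrast (0.474).

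miR-322-5p, the rarest member, ranged from 25.6 to 76.7 CPM in young normal, 25.1 to 58.7 in old normal, 27.96 to 46.5 in young dwarf and 19.7 to 42.3 in old dwarf mice. Here too all 4 groups overlapped. Unlike the other members its fitted value in the old genotype contrast was below 0, at log2 -0.53 ± 0.33 (edgeR adjusted p 0.213). With age it stood at log2 -0.02 ± 0.32 in normal mice (0.980) and log2 -0.50 ± 0.33 in dwarf mice (0.997).

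**Figure D2:**
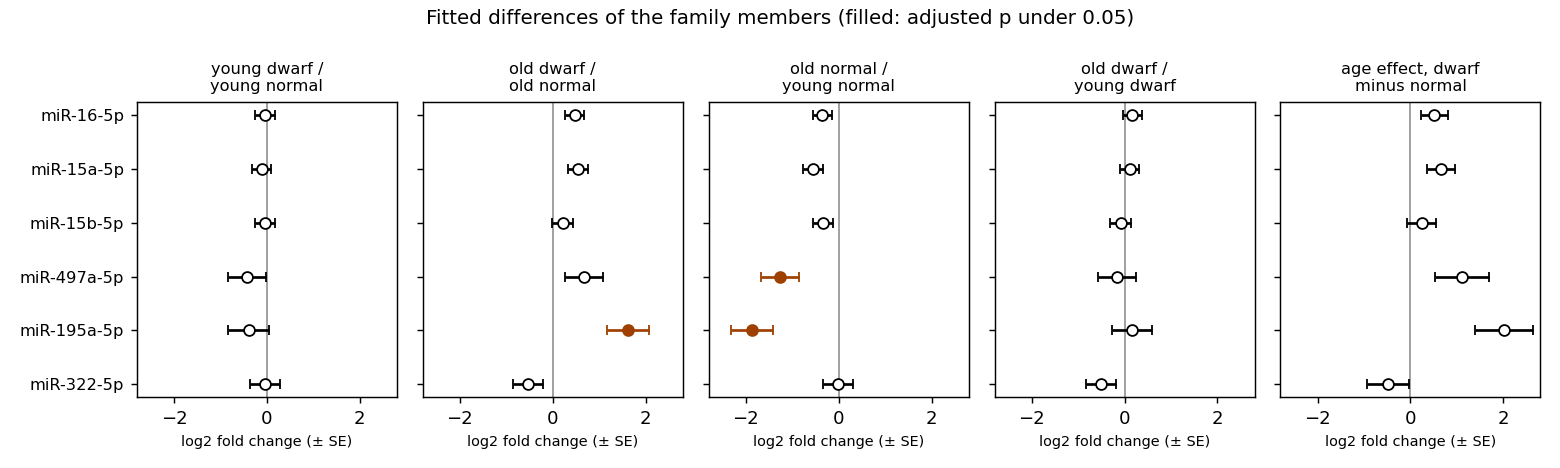
Log2 fold changes (x axes, ± SE) of the 6 members in 4 comparisons and in the difference of the age effects, from the edgeR fit to all 20 libraries. Filled points passed an adjusted p of 0.05: miR-195a-5p and miR-497a-5p in normal ageing, and miR-195a-5p in the old genotype contrast.

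Set against all tested miRNAs, the family moved as follows. In normal ageing 2 of 6 members fell and none rose, where 15.6% of the 360 miRNAs passed, 10.6% lower and 5% higher, and the median of the members was log2 -0.45 against 0.00 over all. All 6 fitted values lay below 0, that of miR-322-5p at log2 -0.02 ± 0.32. All 6 lay below 0 in the young genotype contrast too, where none passed. Some members varied together over the libraries, so their signs are not separate observations. In the old genotype contrast 1 of 6 members was higher and none lower, where 26.4% of all passed, 16.1% higher and 10.3% lower, so the count was near the background. Of the 6 values there, 5 lay above 0, with a median of log2 0.51 against -0.06 over all.

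In the young genotype contrast 0 of 6 members passed in edgeR, where 0% of all did, with 0 members and 28 of the 360 at an unadjusted p under 0.05. DESeq2 called 0 members and 6 miRNAs in all. The member values lay between log2 -0.43 ± 0.41 (miR-497a-5p, edgeR adjusted p 0.748) and log2 -0.04 ± 0.22 (miR-15b-5p, 0.981). In dwarf ageing 0 of 6 passed in edgeR, where 0.556% of all did, with 0 members and 14 of the 360 at an unadjusted p under 0.05. DESeq2 called 0 members there and 2 miRNAs in all. miR-195a-5p stood there at log2 0.16 ± 0.43, miR-16-5p at log2 0.17 ± 0.20 and miR-15a-5p at log2 0.11 ± 0.21 (adjusted p 0.997 for each).

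Whether age acted differently in the 2 genotypes was tested with the difference of the age effects, dwarf minus normal. In edgeR 0 of 6 members passed, where 0.556% of all did. At an unadjusted p under 0.05 stood 2 members and 57 of the 360. For miR-195a-5p the difference was log2 2.02 ± 0.62 (p 0.00411, adjusted p 0.134), and for miR-15a-5p log2 0.66 ± 0.30 (p 0.0406, adjusted p 0.287). DESeq2 called 1 member, miR-195a-5p, at log2 2.18 (adjusted p 0.0316), and 20 of the 360 miRNAs in all. The fall of miR-195a-5p in normal mice and its value near 0 in dwarf mice are thus not shown to differ by the edgeR test. The values were log2 1.11 ± 0.58 for miR-497a-5p (adjusted p 0.336) and log2 0.52 ± 0.29 for miR-16-5p (0.379).

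The calls for miR-16-5p, miR-15a-5p and miR-15b-5p changed with the scaling of libraries, and that for miR-15a-5p with other choices too. With library totals in place of TMM factors, the median of all miRNAs shifted to log2 -0.42 in normal ageing and to log2 0.23 in the old genotype contrast. miR-16-5p then stood at log2 -0.77 and 0.77 (edgeR adjusted p 0.00898 and 0.00747), and miR-15a-5p at log2 -0.96 and 0.82 (0.00898 and 0.0104). miR-15b-5p passed in normal ageing only (log2 -0.74, adjusted p 0.0131). With RLE factors miR-15a-5p passed in both comparisons (log2 -0.61, adjusted p 0.0331, and log2 0.67, 0.0161) and miR-16-5p in the old genotype contrast (log2 0.60, 0.0227). With upper-quartile factors miR-497a-5p no longer passed in normal ageing (log2 -1.16, adjusted p 0.0541). miR-195a-5p passed in both comparisons with each of the 4 scalings. DESeq2 called miR-15a-5p in normal ageing (log2 -0.61, adjusted p 0.0112) and in the old genotype contrast (log2 0.67, 0.00325), and miR-16-5p in the latter (log2 0.60, 0.00663). In edgeR with TMM factors miR-15a-5p passed in both when all precursor rows were summed (log2 -0.56, adjusted p 0.0497, and log2 0.56, 0.0373). It passed also in the old genotype contrast with names of identical counts entered once (log2 0.60, 0.0396), with the replicate block (log2 0.57, 0.0465) and without old normal replicate 3 (log2 0.67, 0.0399), and in normal ageing without young normal replicate 1 (log2 -0.66, 0.0310).

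**Figure D3:**
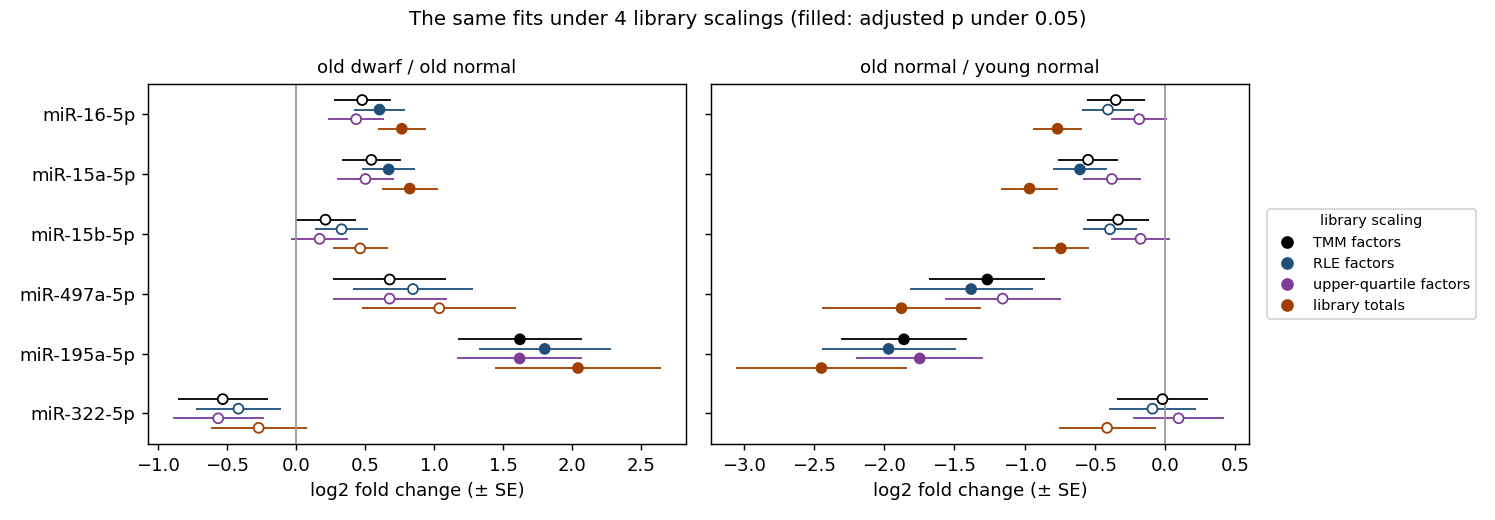
Log2 fold changes (± SE) of the members under 4 library scalings, in the old genotype contrast (left) and old against young normal mice (right). Points of miR-195a-5p are filled (adjusted p under 0.05) under each scaling, while those of miR-16-5p are filled with RLE factors and library totals (left) or library totals alone (right).

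Among red-cell miRNAs, miR-451a fell in normal ageing as miR-195a-5p and miR-497a-5p did. Of the 5 listed (miR-451a, miR-144-3p, miR-144-5p, miR-486a-5p and miR-486a-3p) all were tested and none was at 0. In normal ageing 1 of 5 fell, miR-451a at log2 -0.99 ± 0.28 (edgeR adjusted p 0.0198), where 10.6% of all 360 miRNAs were called lower. In the old genotype contrast 0 of 5 passed in edgeR, where 26.4% of all did, with 3 at an unadjusted p under 0.05 and 3 called by DESeq2. There miR-451a stood at log2 0.73 ± 0.28 (adjusted p 0.0551), with groups that did not overlap. The miR-144 arms stood at log2 -0.69 ± 0.26 (miR-144-3p) and log2 -0.75 ± 0.27 (miR-144-5p) in normal ageing, and at log2 0.57 ± 0.26 and 0.63 ± 0.27 in the old genotype contrast. miR-486a-5p had fitted values of the opposite sign, log2 0.59 ± 0.30 and log2 -0.32 ± 0.30, and miR-486a-3p stood at log2 -0.05 ± 0.46 and log2 -0.50 ± 0.46. The summed level of the list is mostly miR-486a-5p, and ran from 183203 to 449456 CPM in young normal, 345146 to 519321 in old normal, 154043 to 325943 in young dwarf and 244952 to 499469 in old dwarf mice.

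A common haemolysis index sets miR-451a against miR-23a-3p as a log2 ratio. It ran from 3.13 to 4.83 in old normal libraries, 4.66 to 6.29 in young normal libraries, 4.90 to 6.09 in old dwarf libraries and 5.08 to 6.03 in young dwarf libraries. The old normal libraries thus lay below all dwarf libraries. Of the red-cell miRNAs the index holds miR-451a only. The mean of miR-486a-5p was highest in old normal mice, at 392032 CPM, against 313632 in old dwarf, 260831 in young normal and 192990 in young dwarf mice. When the edgeR model held the haemolysis index too, the calls of the family were lost, as were those of nearly all miRNAs, with 1 of 360 left in normal ageing. miR-195a-5p stood at log2 -1.25 (adjusted p 0.315) in normal ageing and at log2 1.01 (0.353) in the old genotype contrast. miR-497a-5p stood at log2 -0.94 (0.424) in normal ageing. miR-16-5p stood at log2 0.13 in normal ageing (0.815), against log2 -0.35 without the index. Since the index itself differed between these groups, its part and that of group cannot be told apart. Fewer cells of a type and less RNA per cell cannot be told apart in serum either.

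The log2 count ratio of miR-16-5p to miR-451a within a library was 1.17, 0.51, 0.53, 1.12 and 0.73 in young normal replicates 1 to 5, and 1.26, 1.91, 1.47, 1.38 and 1.34 in old normal replicates 1 to 5. Every old normal ratio lay above every young normal ratio. The ratio was higher by log2 0.66 in old than in young normal mice (two-sided exact permutation test, 5 against 5 libraries, p 0.00794, adjusted p 0.0454), a ratio that does not depend on library scaling. This p is the smallest that 5 against 5 libraries allow. Adjustment ran over 40 tests, 10 ratios in 4 comparisons. With 1 library left out the difference was log2 0.55 to 0.75. Its adjusted p was then above 0.05 without young normal replicate 4 (0.0529) or any one old normal library (0.0794 to 0.119). Since the unadjusted p can go no lower, an adjusted p depends on how many of the 40 tests share the smallest p, and says nothing here of how stable a ratio is. In the old genotype contrast the ratio differed by log2 -0.28 (exact p 0.183, adjusted p 0.401), and it did not pass in the other comparisons either.

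Lymphocyte markers rose where miR-195a-5p fell, and the other marker lists passed in part or not at all. Of 3 lymphocyte miRNAs (miR-150-5p, miR-342-3p and miR-155-5p) 3 rose in normal ageing and 3 fell in the old genotype contrast, with summed levels of 611 to 1887 CPM in young normal, 1580.1 to 4963 in old normal, 645 to 1426 in young dwarf and 667 to 1444 in old dwarf mice. Of 4 platelet and myeloid miRNAs 1, miR-191-5p, rose in normal ageing and fell in the old genotype contrast (log2 1.10 and -1.10, edgeR adjusted p 0.0465 and 0.0337), while miR-142a-3p stood at log2 -0.21 and -0.32. That list summed to 20024 to 50465 CPM in young normal, 53371 to 74931 in old normal, 18181 to 45344 in young dwarf and 19949.8 to 57459 in old dwarf mice. Of 4 vessel and smooth muscle miRNAs 1, miR-143-3p, was higher in the old genotype contrast (log2 1.34 ± 0.46, adjusted p 0.0381). In normal ageing 0 of these 4 passed in edgeR, with 1 at an unadjusted p under 0.05 and 1 called by DESeq2. That list summed to 2776 to 7046 CPM in young normal, 2385 to 5228 in old normal, 5648 to 9121 in young dwarf and 3286 to 7915 in old dwarf mice. Of 3 muscle miRNAs 2 were tested and 0 passed in edgeR in either comparison, with 2 at an unadjusted p under 0.05 in normal ageing and 1 in the old genotype contrast (DESeq2 called 2 and 0). They summed to 1061 to 7554 CPM in young normal, 314 to 3971 in old normal, 1774 to 5375 in young dwarf and 1975 to 5559 in old dwarf mice, nearly all of it miR-133a-3p, with miR-206-3p at 3 reads in all libraries. Of 3 liver miRNAs 0 passed in edgeR in either comparison, with 1 and 2 at an unadjusted p under 0.05 (DESeq2 called 0 and 2), and sums of 3007 to 6013, 5653 to 12474, 5574 to 22700.3 and 4074 to 20824 CPM in the same order of groups. Of all 360 miRNAs, 10.6% were called lower and 5% higher in normal ageing. In the old genotype contrast 16.1% were called higher and 10.3% lower. With such shares, 1 call in a list of 4 says little about that list. The part of these cell types in the result was not tested.

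miR-195a-5p and miR-497a-5p, neighbours on chromosome 11, did not change in a fixed ratio. The log2 ratio of miR-195a-5p to miR-497a-5p counts was -0.32, -0.91, -0.62, -0.25 and -0.50 in young normal replicates 1 to 5. It was -1.10, -1.15, -1.11, -1.22 and -1.29 in old normal replicates 1 to 5. In old dwarf replicates 1 to 5 it was 0.11, -0.62, -0.95, -0.06 and -0.47. Young dwarf replicates 1 to 5 held ratios of -0.51, -1.14, -0.21, -0.22 and -0.94. The old normal libraries lay below all young normal and old dwarf libraries and varied little, while young dwarf replicate 2 lay within their range. The difference in ratio was log2 -0.66 in old against young normal mice and log2 0.78 in the old genotype contrast (two-sided exact permutation tests, 5 against 5 libraries, p 0.00794 and adjusted p 0.0454 for both). Leaving out 1 library gave log2 -0.75 to -0.59 and log2 0.65 to 0.91. The adjusted p, set by the number of tests at the smallest p as above, exceeded 0.05 for both without any one old normal library (0.0794 to 0.106) and for the first without young normal replicate 4 (0.0529). Young dwarf libraries averaged -0.60, not past the threshold against young normal mice (exact p 0.730, adjusted p 0.835).

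**Figure D4:**
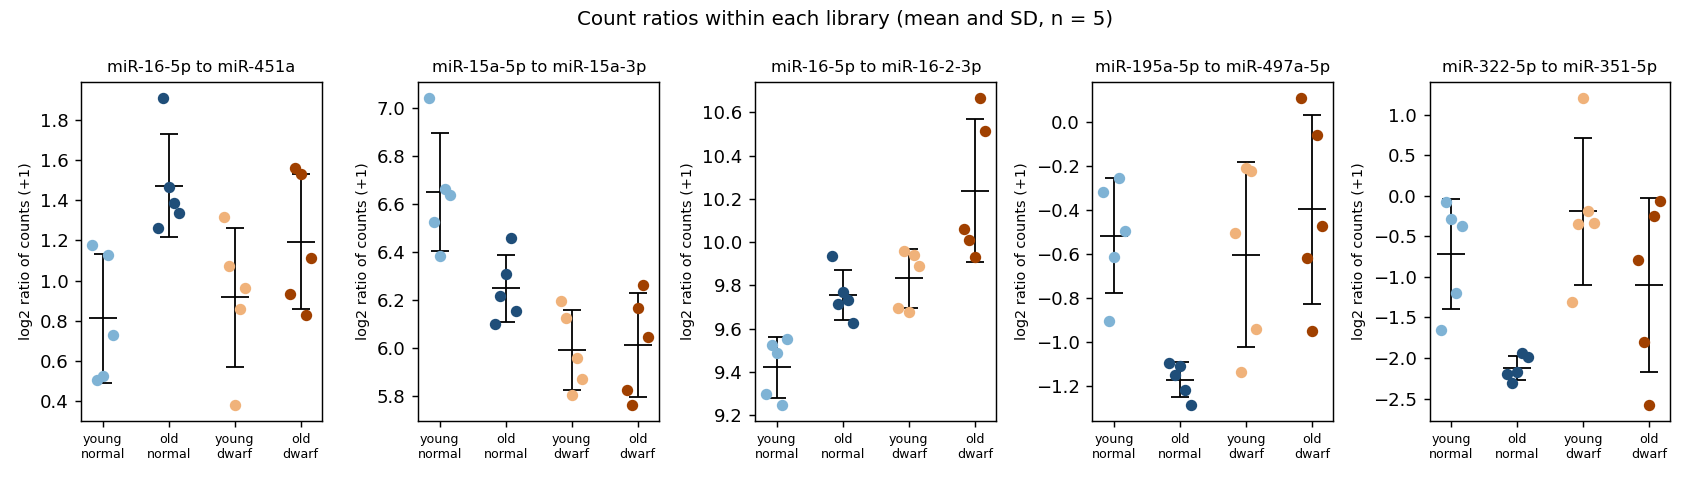
Log2 ratios of counts (each plus 1) within each library for 5 pairs of miRNAs, with mean and SD of 5 libraries per group. The old normal libraries hold ratios of miR-195a-5p to miR-497a-5p of -1.29 to -1.10, below every young normal library.

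The opposite arms of the precursors are counted apart from the members. Of 7 such names 5 were tested, those of Mir195a and Mir497 not among them, and 1 passed in a comparison. That was the old genotype contrast, where 16.1% of all 360 miRNAs were called higher, so the count was near the background. miR-15a-3p, the arm called, was higher there by log2 0.79 ± 0.28 (edgeR adjusted p 0.0442). It stood at 22.1, 13.4, 27.8, 18.5 and 26.8 CPM in old normal and at 33.4, 48.0, 35.5, 33.4 and 38.8 CPM in old dwarf replicates 1 to 5, so the groups did not overlap. The old normal values rested on 44, 15, 70, 34 and 78 reads, and the old dwarf values on 62, 134, 63, 49 and 78. The call was kept in 10 of 20 fits with 1 library left out (log2 0.67 to 0.90). It was lost without old normal replicates 1 (adjusted p 0.0669), 2 (0.107) or 4 (0.0941), without young dwarf replicates 2 (0.0576), 3 (0.0563) or 5 (0.0522), and without old dwarf replicates 1 (0.0676), 2 (0.0668), 4 (0.0733) or 5 (0.0902). It was lost also with no filter on low counts (adjusted p 0.161) and when the model held the haemolysis index (log2 0.29, 0.634). miR-16-2-3p, made from Mir16-2 alone, stood there at log2 0.02 ± 0.26 (0.966), miR-16-1-3p, made from Mir16-1 alone, at log2 0.72 ± 0.40 (0.170) and miR-15b-3p at log2 0.31 ± 0.25 (0.331). miR-195a-3p had 153 reads and miR-497a-3p 2 reads in all libraries together, too few to test.

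The arms of Mir15a differed in ratio between the young genotypes. The log2 ratio of miR-15a-5p to miR-15a-3p was 7.04, 6.52, 6.38, 6.66 and 6.64 in young normal and 6.20, 6.13, 5.80, 5.96 and 5.87 in young dwarf replicates 1 to 5. For miR-15a-3p these rested on 26, 52, 128, 112 and 58 reads and on 66, 94, 107, 114 and 88 reads. All young dwarf libraries lay below all young normal ones, a difference of log2 -0.66 (two-sided exact permutation test, p 0.00794, adjusted p 0.0454). miR-16-5p, which both loci give, was also set against miR-16-2-3p, which is no ratio of the arms of one precursor. This log2 ratio was higher in young dwarf than in young normal mice by 0.41, and in old than in young normal mice by 0.33 (exact permutation tests, 5 against 5 libraries with no overlap, p 0.00794 and adjusted p 0.0454 for both). With 1 library left out, the young genotype differences were log2 -0.73 to -0.56 (miR-15a arms) and log2 0.37 to 0.45, with an adjusted p above 0.05 only without young normal replicate 4 (0.0529 for both). The age difference was log2 0.29 to 0.37, with an adjusted p above 0.05 without young normal replicate 4 or any one old normal library (0.0794 to 0.106). These adjusted p are also set by the number of tests at the smallest p. In young mice no arm passed by itself in edgeR: miR-15a-3p stood at log2 0.50 ± 0.28 and miR-16-2-3p at log2 -0.47 ± 0.26 (adjusted p 0.618 for both). miR-15b-5p and miR-15b-3p kept a log2 ratio of 0.76 to 1.30 over all libraries (exact p of at least 0.317 in all comparisons), and the ratio of miR-16-5p to miR-16-1-3p did not pass either (at least 0.151).

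Over the 20 libraries some members varied together. miR-16-5p and miR-15a-5p had a Pearson r of 0.949 (Spearman rho 0.919; permutation p 1e-05 for both, the smallest that 100000 permutations give; adjusted p 4e-05 and 6e-05 over 12 pairs). The r was 0.899 without the 2 libraries farthest from the median of miR-16-5p and 0.947 within groups. miR-16-5p and miR-15b-5p had an r of 0.859 (rho 0.759, permutation p 2e-05 and 0.00015, adjusted p 6e-05 and 0.00036), 0.701 without the 2 farthest and 0.903 within groups. miR-195a-5p and miR-497a-5p had an r of 0.899 (rho 0.875, permutation p 1e-05 for both, adjusted p 4e-05 and 6e-05), 0.866 without the 2 farthest and 0.896 within groups. Of the 6 pairs that join miR-16-5p, miR-15a-5p or miR-15b-5p to miR-195a-5p or miR-497a-5p, 3 were computed and none passed. The highest was miR-15a-5p with miR-195a-5p, with an r of 0.419 (rho 0.289, permutation p 0.0633 and 0.218, adjusted p 0.0949 and 0.291), 0.194 without the 2 farthest and -0.03 within groups. miR-16-5p and miR-195a-5p had an r of 0.289 (rho 0.194, permutation p 0.217 and 0.411, adjusted p 0.237 and 0.448), 0.005 without the 2 farthest and -0.10 within groups.

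With miR-451a, miR-16-5p had an r of 0.763 (rho 0.612, permutation p 0.00024 and 0.00478, adjusted p 0.00048 and 0.00956), which came to 0.480 without the 2 farthest libraries, and 0.726 within groups. miR-195a-5p had an r of 0.753 with miR-451a (rho 0.799, permutation p 4e-05 and 6e-05, adjusted p 9.6e-05 and 0.00024), 0.770 without the 2 farthest and 0.522 within groups. miR-322-5p had an r of -0.37 with miR-16-5p (rho -0.33, permutation p 0.113 and 0.158, adjusted p 0.151 and 0.237), -0.27 without the 2 farthest and -0.26 within groups. All levels of a library share its scaling factor.

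**Figure D5:**
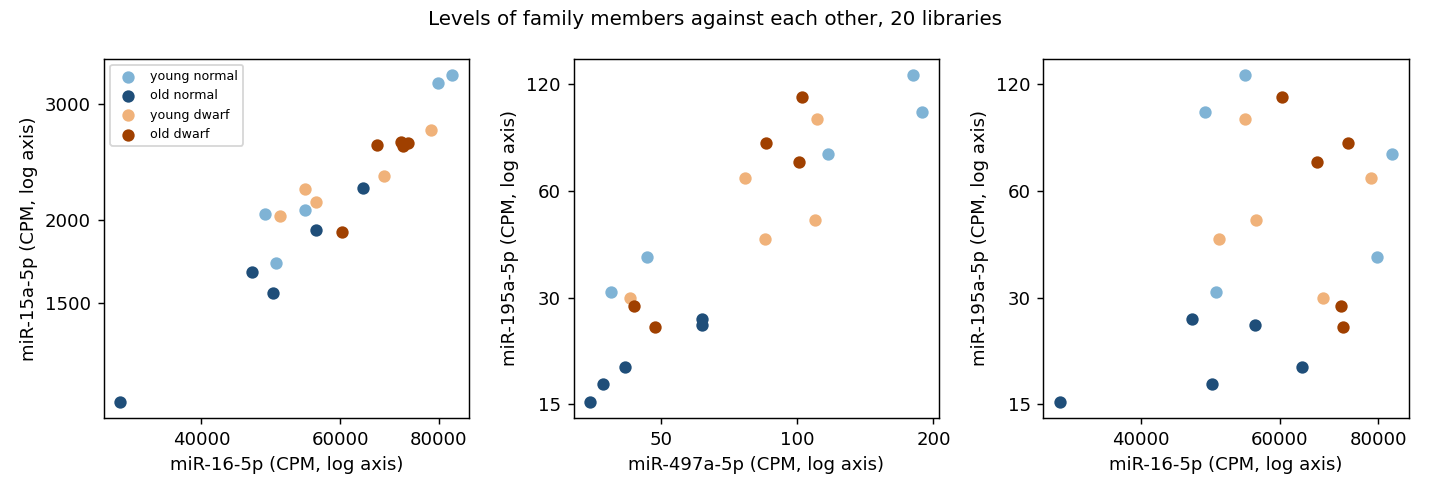
CPM of 3 pairs of members against each other (log axes), with a point for each of the 20 libraries coloured by group. miR-15a-5p follows miR-16-5p (r 0.949) and miR-195a-5p follows miR-497a-5p (r 0.899), while miR-195a-5p and miR-16-5p are scattered (r 0.289).

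The tested miRNAs most like each member, by Pearson r of log2 CPM over the 20 libraries, were sought outside the family, its opposite arms, the Mir322 cluster and the red-cell miRNAs. miR-16-5p was closest to miR-93-5p (r 0.933) and miR-106b-5p (0.885), which share a gene cluster. The same names led for miR-15a-5p (0.897 and 0.937) and miR-15b-5p (0.883 and 0.856), and a let-7 miRNA came next for each of these members. miR-195a-5p was closest to miR-218-5p (0.929), miR-99a-3p (0.929) and miR-199b-3p (0.908), and miR-497a-5p to miR-100-5p (0.934), miR-337-5p (0.905) and miR-125b-5p (0.899). miR-322-5p was closest to the myeloid miRNAs miR-223-3p (0.683) and miR-223-5p (0.668), and then to miR-1981-3p (0.648). These values are a description, since the names were picked for their r.

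The neighbours of miR-322-5p on chromosome X were mostly rare. Of 9 listed names 4 were tested (miR-351-5p, miR-542-3p, miR-450a-5p and miR-450b-5p), and 0 passed in any comparison in edgeR, with 0 at an unadjusted p under 0.05 and 0 called by DESeq2. miR-351-5p, encoded beyond Mir503 as seen from Mir322, had values of log2 0.99 ± 0.61 in normal ageing (adjusted p 0.225) and log2 -1.23 ± 0.62 in the old genotype contrast (0.127). The log2 ratio of miR-322-5p to miR-351-5p counts was -1.66, -0.08, -0.28, -1.20 and -0.37 in young normal and -2.19, -2.31, -2.18, -1.94 and -1.99 in old normal replicates 1 to 5. Every old normal library lay below every young normal one, by log2 -1.40 on average (two-sided exact permutation test, p 0.00794, adjusted p 0.0454). Leaving out 1 library gave log2 -1.64 to -1.24, with an adjusted p above 0.05, set as above by the tests at the smallest p, without young normal replicate 4 (0.0529) or any one old normal library (0.0794 to 0.106). Old dwarf libraries ranged from -2.58 to -0.07 and spanned the range of the others but for young dwarf replicate 3, at 1.21. miR-322-5p and its own opposite arm had a log2 ratio of -1.69 to -0.02 with no difference past the threshold (exact p of at least 0.571).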

How the data were processed

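The authors' deposited table, laid out as by the miRDeep2 quantifier per the file headers, holds whole-number read counts and RPM for 2241 pairs of mature miRNA and precursor in 20 samples, with 0 sample columns unused. The deposited RPM values were not tested. The authors' deposited miRDeep2 report has no values per sample and was not used. Per the submitters' processing notes, which state no order, Bowtie 0.12.8, bedtools, edgeR and GRCm38 (mm10) were used. RNA was extracted from serum, and a TruSeq small RNA kit was used for libraries, per the labels' protocols.

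Counts (1 row per name, 115 of 1915 names having several) were tested with edgeR 4.0.16 (R 4.3.3): filter by group with a minimum count of 10, TMM factors, 1 coefficient per group, quasi-likelihood test and Benjamini-Hochberg adjustment. The filter kept at least 99.94% of reads per library, and the biological coefficient of variation was 47.5%. SE is the size of the log2 fold change over the square root of F. DESeq2 1.42.0, other scalings, filters, row choices, covariates and libraries left out were alternatives. Ratios used counts plus 1, and log2 CPM a prior count of 2. A ratio was tested where no more than 10 libraries were under 10 reads, with two-sided exact permutation tests. Reads are not independent molecules, and their number limits precision. Named miRNAs were the members, their opposite arms and cluster partners, same-seed names, cell markers, and the 3 tested miRNAs most correlated with each member. The members and lists were chosen with earlier results of these data known.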

Additional observations from a re-analysis of the deposited data

Results flagged for a closer look

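miR-15a-5p in old dwarf replicate 1, at 1923 CPM, stood far below the other old dwarf libraries, of which the nearest held 2589 CPM. The gap was 0.951 of the range of the group, above the 95% limit of 0.71 for 5 libraries. Such a gap was looked for in 24 sets of a member and a group, and chance marks about 1 set in 20. The cause was not tested.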

How the results depend on the processing

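The number of members called moved with the setting. Brackets give all miRNAs called of those tested. In normal ageing it was 2 (56 of 360). It was 5 with library totals (106 of 360), and 3 with RLE factors (65 of 360), DESeq2 (117 of 360) and summed precursor rows (66 of 368). It was 1 with upper-quartile factors (69 of 360), only the groups compared (34 of 304) and the replicate block (38 of 360). With the haemolysis index it was 0 (1 of 360). In the old genotype contrast it was 1 (95 of 360). It was 3 with library totals (119 of 360), RLE factors (118 of 360) and DESeq2 (136 of 360). It was 2 with summed precursor rows (95 of 368), identical names counted once (103 of 353) and the replicate block (92 of 360). With the haemolysis index it was 0 (0 of 360). For the difference of the age effects it was 1 with DESeq2 (20 of 360) against 0 (2 of 360). With 1 library left out it ranged from 1 to 3 in normal ageing and from 0 (without old dwarf replicate 1) to 2 (without old normal replicate 3) in the old genotype contrast. All miRNAs called ranged, over settings with all libraries kept, from 1 to 117 in normal ageing and from 0 to 136 in the old genotype contrast. Among these DESeq2 gave the highest counts, 117 and 136, against 56 and 95 with edgeR and TMM factors, and its size factors and test differ together. With 1 library left out edgeR called 29 (without young normal replicate 5) to 123 (without replicate 1) in normal ageing, with 37 without young normal replicate 3 or old normal replicate 1. In the old genotype contrast it called 51 (without old dwarf replicate 5) to 143 (without replicate 2), with 53 without replicate 1 and 55 without replicate 4, so the background percentages shift likewise. Fits with only the groups compared gave no difference of the age effects.

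Replicate numbers gave no sign that they pair the libraries. Deviations from group means correlated by -0.01 on average over 30 same-numbered pairs (-0.68 to 0.81), of which 13 were over 0.1. Over 120 others they correlated by 0.01 (-0.77 to 0.85). With so wide a spread the means cannot exclude a weak pairing. With the replicate block miR-497a-5p stood at log2 -1.16 in normal ageing (edgeR adjusted p 0.0806) and miR-15a-5p at log2 0.57 in the old genotype contrast (0.0465). With a pseudocount of 5 in the ratios, miR-15a-5p to miR-15a-3p in normal ageing (log2 -0.45) and miR-16-5p to miR-16-2-3p in the old genotype contrast (log2 0.49) also passed (exact permutation tests, adjusted p 0.0353).

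Only values short of the threshold changed sign (log2), and the cause was not tested. With library totals these were miR-15a-5p -0.30, miR-16-5p -0.21 and miR-195a-5p -0.15 in dwarf ageing, and miR-15a-5p 0.15, miR-15b-5p 0.23, miR-16-5p 0.21 and miR-322-5p 0.24 in the young genotype contrast. With the haemolysis index they were miR-15b-5p -0.13 (difference of age effects), 0.0612 (normal ageing) and -0.12 (old genotype contrast), miR-16-5p 0.13 (normal ageing), and both 0.0069 in young mice. In young mice RLE factors gave miR-15b-5p 0.0228 and miR-16-5p 0.0167, DESeq2 gave 0.0214 and 0.0167, and the replicate block gave miR-322-5p 0.0108. In normal ageing miR-322-5p stood at 0.0975 with upper-quartile factors, 0.0115 with a minimum of 10 CPM and 0.0446 with the replicate block, and upper-quartile factors gave miR-15b-5p 0.0096 in dwarf ageing.

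With 1 library left out, signs changed for miR-15b-5p (-0.19 to 0.0097) and miR-195a-5p (-0.15 to 0.39) in dwarf ageing, miR-322-5p in normal ageing (-0.21 to 0.33), and miR-15a-5p (-0.22 to 0.0208), miR-15b-5p (-0.11 to 0.0798), miR-16-5p (-0.14 to 0.0812) and miR-322-5p (-0.18 to 0.30) in young mice. Ratios that did so were miR-16-5p to miR-16-1-3p (-0.25 to 0.0105), miR-16-5p to miR-15b-5p (-0.0613 to 0.03) and miR-195a-5p to miR-497a-5p (-0.18 to 0.0471) in young mice, miR-16-5p to miR-15b-5p (-0.0398 to 0.0313) and miR-322-5p to miR-322-3p (-0.14 to 0.0279) in normal ageing, miR-322-5p to miR-322-3p in the old genotype contrast (-0.20 to 0.20) and dwarf ageing (-0.14 to 0.26), and miR-15a-5p to miR-15a-3p in dwarf ageing (-0.0409 to 0.0846). At this depth miR-195a-3p (153 reads in all) and miR-497a-3p (2) could not be tested.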
